A study of Mus musculus with 30 samples.

Results

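Expression of 10 genes of hepatic bile acid synthesis and transport was examined in livers of adult offspring. The males that gave the sperm or the seminal plasma differed in diet. The genes were taken as a list of symbols: Cyp7a1, Cyp8b1, Cyp27a1, Slc27a5, Baat, Slc10a1, Slco1b2, Abcb11, Nr1h4 and Nr0b2. Each of the 10 symbols was annotated to 1 probe set, among 22206 probe sets and 19505 annotated genes in all. The livers came from C57/BL6J mice culled at 16 weeks, and 1 Clariom S array was run per animal (30 arrays). The first letter of a group's name stands for the diet of the sperm donor and the second for that of the male giving seminal plasma: NN offspring had a normal protein diet on both sides (3 females, 4 males), LL offspring a low protein diet on both (5 females, 4 males), NL offspring normal protein sperm with low protein seminal plasma (3 females, 4 males) and LN offspring the reverse (3 females, 4 males). All offspring, NN included, were conceived by artificial insemination together with mating to a vasectomised male. Only the diets of the sperm donors and of the vasectomised males differed. The question was whether either paternal contribution altered liver expression in the offspring.

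Bile acids are made from cholesterol in hepatocytes. Cyp7a1 catalyses the first and rate-limiting step of the classical pathway, Cyp8b1 adds the hydroxyl group that gives cholic acid, and Cyp27a1 oxidises the sterol side chain and starts the alternative pathway. Slc27a5 activates bile acids to their CoA esters and Baat joins these to taurine. Abcb11, the bile salt export pump, secretes the conjugates into bile, and Slc10a1 and Slco1b2 take bile acids up again from portal blood. The nuclear receptor Nr1h4 (FXR) senses bile acids and induces Nr0b2 (SHP), a co-repressor that lowers transcription of Cyp7a1 and Cyp8b1, while it also induces Abcb11.

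The RefSeq promoter table (GRCm38.p6) held a start site for 7 of the 10 genes. The 250 bases before the start are shown for Cyp8b1, the gene with a sex difference, and for Abcb11 and Slco1b2, the genes whose LN and NN females did not overlap, LN being higher, as was so for 6.46% of all probe sets. All 3 are written 5′ to 3′ on the coding strand, with the motif matches in capitals.
Cyp8b1, chr9:121916306-121916555, minus strand: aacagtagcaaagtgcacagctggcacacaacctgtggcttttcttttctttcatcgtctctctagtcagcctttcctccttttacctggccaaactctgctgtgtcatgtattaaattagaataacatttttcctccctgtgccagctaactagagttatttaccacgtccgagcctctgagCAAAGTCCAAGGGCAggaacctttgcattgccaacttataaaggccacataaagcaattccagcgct
Abcb11, chr2:69342617-69342866, minus strand: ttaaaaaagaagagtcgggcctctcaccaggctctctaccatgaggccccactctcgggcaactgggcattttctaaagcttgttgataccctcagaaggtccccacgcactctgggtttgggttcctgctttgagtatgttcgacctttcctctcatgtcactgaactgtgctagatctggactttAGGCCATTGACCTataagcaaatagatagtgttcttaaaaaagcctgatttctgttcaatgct
Slco1b2, chr6:141629268-141629517, plus strand: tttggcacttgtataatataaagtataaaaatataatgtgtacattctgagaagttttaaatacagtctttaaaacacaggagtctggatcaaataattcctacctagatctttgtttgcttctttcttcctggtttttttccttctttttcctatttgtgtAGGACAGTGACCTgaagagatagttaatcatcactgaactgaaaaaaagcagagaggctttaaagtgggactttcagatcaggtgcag
The letters searched on both strands were chosen after the sequences had been read, so a match is only a description. In Abcb11 and Slco1b2 the capitals mark an inverted repeat of the half-sites AGGNCA and TGACCT with 1 base between them, the arrangement known for FXR. It lay 63 to 51 bases before the start of Abcb11 and 88 to 76 bases before that of Slco1b2, and occurred in 11 of 32851 promoters of the table (0.0335%). In Cyp8b1 the capitals join CAAAGTCCA, a form of the HNF4A site, at 67 to 59 bases before the start (126 promoters, 0.384%), to an overlapping match of CAAGGNCA, a form of the site of Nr5a2 (LRH-1), at 60 to 53 bases (1816 promoters, 5.53%). Nr0b2 also held CAAGGNCA, and none of the 3 motifs was found in this window of Cyp27a1, Nr1h4 or Slc10a1.

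Before the comparisons, arrays that stood apart are described. NL replicate 6, labelled male, was weak: hybridisation controls (9 probe sets) averaged a log2 signal of 7.61 on it and 10.1 to 11.0 on the other 29 arrays, and 29.5% of all probe sets (6551) lay below the range of the others. Y-linked Eif2s3y was 3.24 on this array, against 7.76 to 8.87 on the other male arrays and 2.53 to 3.30 on female arrays. LL replicate 1, labelled female, had an Eif2s3y signal of 6.56, between the sexes. Hepatocyte markers (10 of 10 measured, Alb and Apoa1 among them) had medians per array of 13.11 to 13.30 on the 29 arrays, so the labelled tissue carried its defining markers, and 12.04 on NL replicate 6. Results are given for all 30 arrays and without NL replicate 6.

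On NL replicate 6 the bile acid genes were low beyond any other animal, with 1 exception. Cyp7a1 had a log2 signal of 7.32 there, against 9.87 to 12.04 on the other 29 arrays, Cyp27a1 7.93 against 10.78 to 11.52, and Abcb11 8.36 against 10.02 to 10.96. In all, 9 of the 10 genes lay below the range of the other arrays, beside the 29.5% of all probe sets, with differences from their median of −1.72 (Nr1h4) to −3.47 (Cyp7a1). Nr0b2 was the exception. It was 8.82 on NL replicate 6, close to the median of 8.87 on the others. After quantile normalization of the deposited values 8 of the 10 genes lay below the range, beside 28.6% of all probe sets, Cyp8b1 came within it at 8.81, and Nr0b2 was 10.30, which was 1.49 above the median of the others. The weak signal of the whole array moved with these values, and its part in them was not tested.

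**Figure D1:**
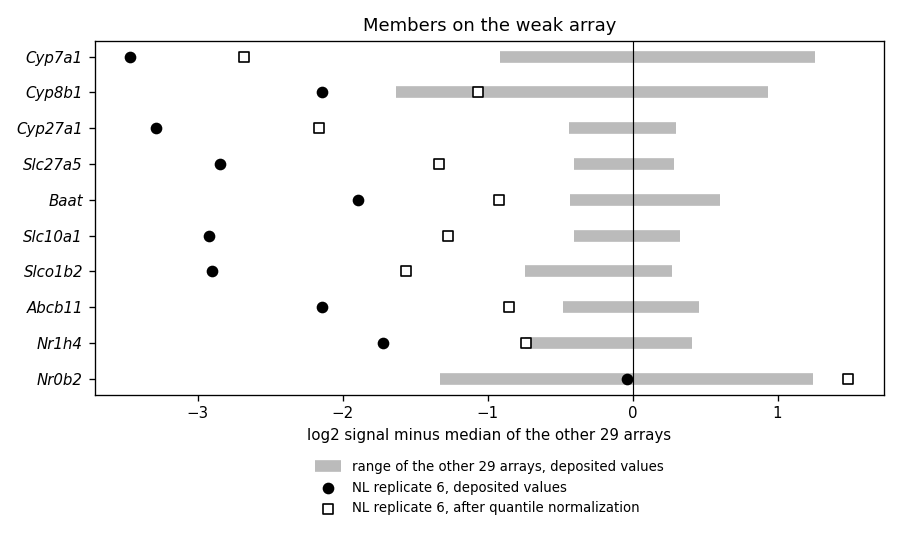
Log2 signal of the 10 genes on NL replicate 6 minus the median of the other 29 arrays, as deposited (filled circles) and after quantile normalization (open squares), with the range of the other arrays as grey bars. As deposited, 9 genes lie left of their bars, and Nr0b2 lies at −0.04.

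Among the other 29 arrays the genes differed in how much animals varied. The narrowest spans were those of Slc27a5 (11.32 to 12.01), Cyp27a1 (10.78 to 11.52) and Slc10a1 (11.59 to 12.32). Nr0b2 had the widest span, 7.54 in a NL male to 10.11 in a LN female, followed by Cyp8b1 (8.31 to 10.88) and Cyp7a1 (9.87 to 12.04). The log2 signals are of different probe sets, so levels are not compared between genes. In the plot by array the groups of both sexes overlapped for most genes.

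**Figure D2:**
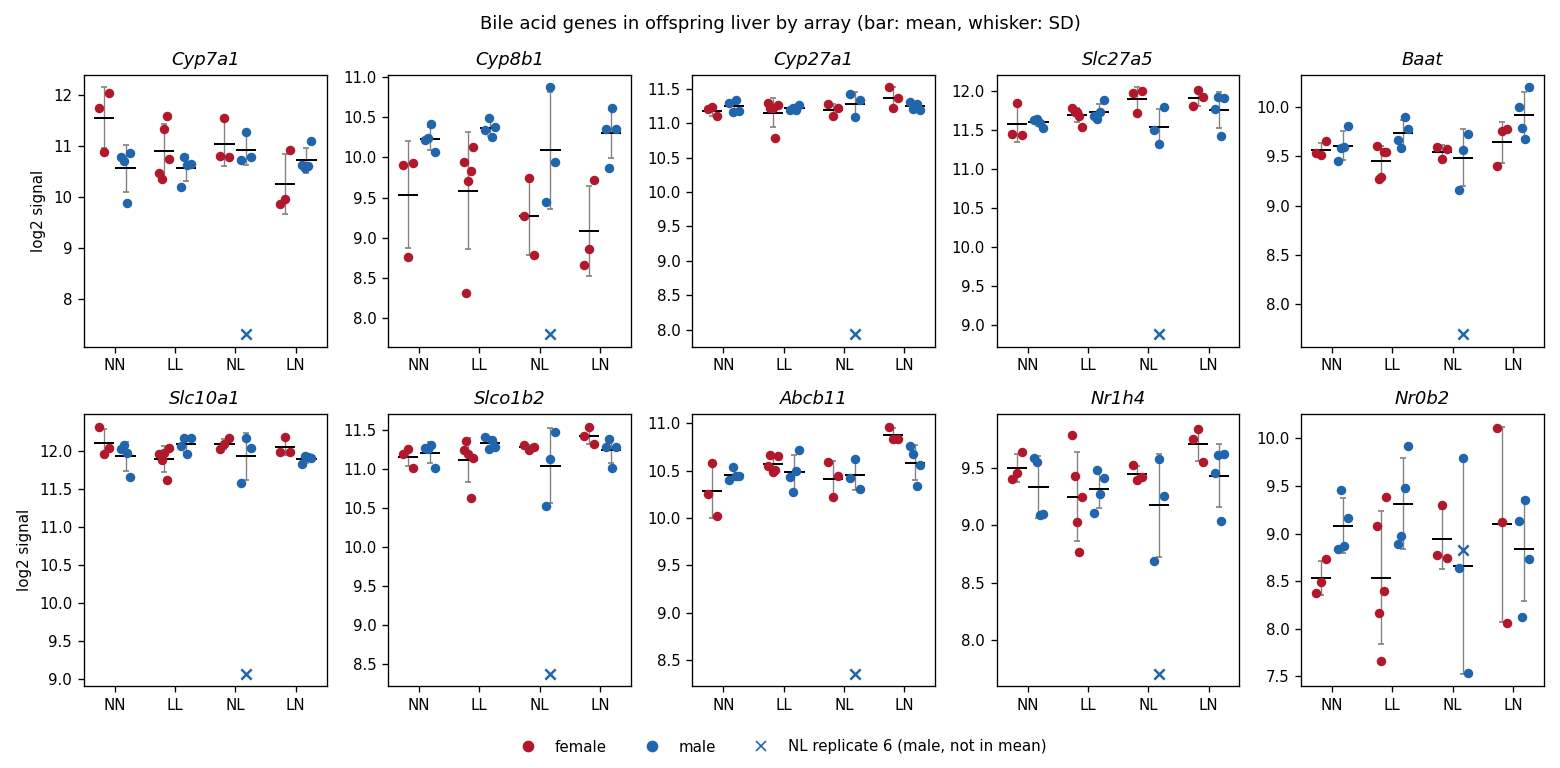
Log2 signal of each gene in each liver by paternal diet group, females red and males blue, with black bars for means and grey whiskers for the SD. NL replicate 6 is a cross and is not in the means. Cyp8b1 is higher in males in all 4 groups, and Abcb11 is highest in LN females (10.83 to 10.96).

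Paternal diet changed no bile acid gene at an adjusted p under 0.05 in limma with both sexes together. With all 30 arrays, 0 of 10 genes passed for LL, NL or LN offspring against NN or for NL against LN, where 0%, 0.0135%, 0% and 0% of all probe sets passed. Without NL replicate 6 again 0 of 10 passed in each, against backgrounds of 0%, 0.054%, 0.0405% and 0%. At an unadjusted p under 0.05 without that array, the counts were 0, 0, 2 and 2 of 10, beside 8.43%, 14.1%, 11.6% and 6.89% of all probe sets. The median log2 differences of the 10 genes from NN were −0.01 in LL, −0.01 in NL and 0.12 in LN offspring, and those of all probe sets were 0.01, 0.01 and 0.02. The p-values treat the animals of a group as independent, although littermates may be among them. The study's methods describe males and females taken as pairs, each from its own litter, but the labels do not give litters. Such pairs were therefore left out of the models, also where the sexes are compared.

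Differences between LL and NN offspring were small for most genes. Without NL replicate 6 the log2 differences ran from −0.24 (Cyp7a1, 95% CI −0.72 to 0.25) to 0.15 (Abcb11, −0.04 to 0.34). The interval for Cyp27a1 was −0.19 to 0.12 and that for Slc10a1 −0.22 to 0.17. For Cyp8b1 and Nr0b2 the intervals were wider, −0.63 to 0.63 and −0.58 to 0.65, so that changes of up to about that size were not excluded.

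In NL offspring all 10 genes had lower means than in NN when every array was used, with differences of −0.53 to −0.05. Without NL replicate 6 they ran from −0.26 (Cyp8b1) to 0.13 (Slc27a5), 6 below 0 and 4 above. Against LN offspring, all 10 NL means were lower with every array, and 3 genes had an unadjusted p under 0.05, beside 14.6% of all probe sets: Abcb11 (−0.57, SE 0.21, adjusted p = 0.339), Nr1h4 (−0.47) and Baat (−0.54). Leaving out NL replicate 6 brought Abcb11 to −0.28 (SE 0.10, adjusted p = 0.637), Baat to −0.28 and Nr1h4 to −0.24, of which the first 2 kept an unadjusted p under 0.05.

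In LN offspring, without NL replicate 6, Abcb11 and Slc27a5 were the genes counted at an unadjusted p under 0.05. Abcb11 ran from 10.34 through a median of 10.76 to 10.96 in LN offspring (n = 7), and from 10.02 through 10.44 to 10.58 in NN offspring (n = 7). The groups overlapped. The log2 difference was 0.33 (95% CI 0.12 to 0.53, adjusted p = 0.213 without NL replicate 6). For Slc27a5 it was 0.23 (95% CI 0.03 to 0.44, adjusted p = 0.367). With all 30 arrays the intervals were −0.11 to 0.76 for Abcb11 and −0.32 to 0.79 for Slc27a5, and 0 of 10 genes had an unadjusted p under 0.05. Cyp7a1 had the largest difference in size, −0.47, with an interval of −0.98 to 0.04 without NL replicate 6.

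The sexes were then compared with NN animals of their own sex. With all arrays 0 of 10 genes passed the adjusted threshold in LL, NL or LN females (background 0%, 0% and 0%) or in LL, NL or LN males (0%, 0% and 0%). Without NL replicate 6 the same counts were 0, beside 0%, 0% and 0% in females and 0%, 0% and 0.036% in males. At an unadjusted p under 0.05 without that array, 2, 1 and 3 genes were counted in LL, NL and LN females (all probe sets: 11.3%, 9.53% and 8.02%) and 0, 0 and 1 in LL, NL and LN males (5.03%, 11.5% and 12.1%). With all arrays LN females gave 1 gene, beside 2.96% of all probe sets.

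**Figure D3:**
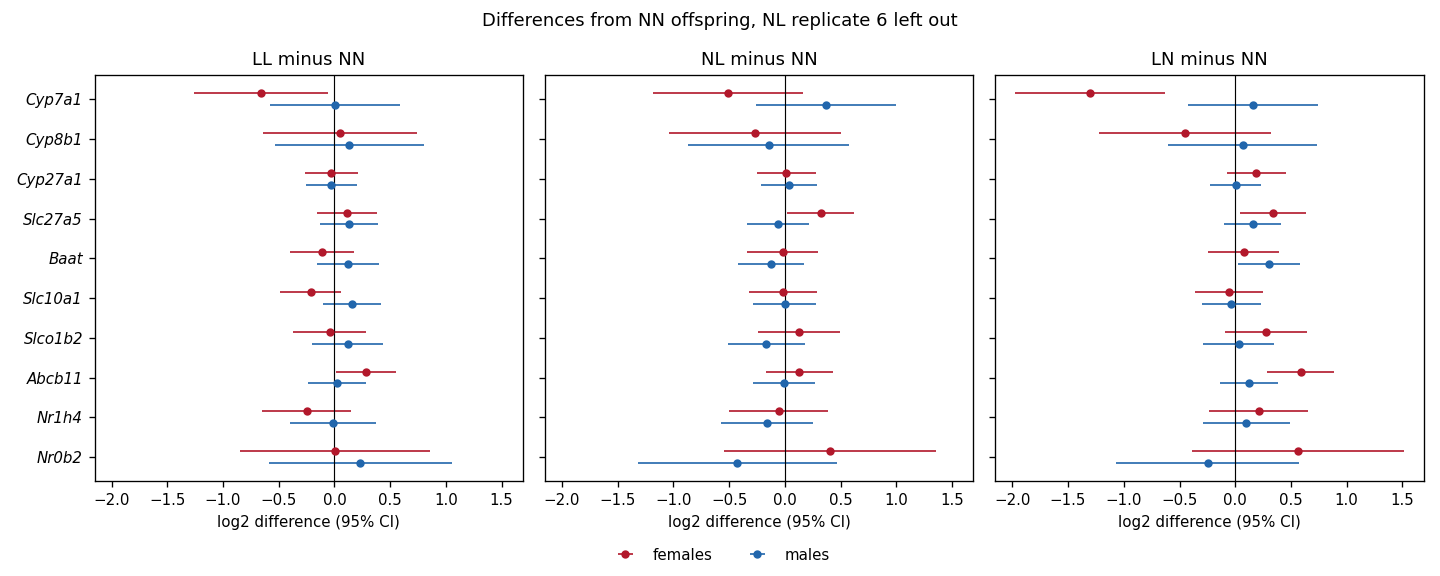
Log2 differences of the 10 genes from NN offspring of the same sex, with 95% confidence intervals from limma without NL replicate 6, for LL, NL and LN offspring (panels), females red and males blue. In LN females Cyp7a1 lies at −1.30 and Abcb11 at 0.59, while the LN males lie at 0.16 and 0.13.

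The largest difference of a bile acid gene from NN offspring of the same sex, without NL replicate 6, was that of Cyp7a1 in LN females. Cyp7a1 was 11.75, 10.89 and 12.04 in NN females and 9.87, 9.97 and 10.93 in LN females. A pair of LN females lay below every NN female and the third lay just above the lowest of them. The log2 difference was −1.30, a ratio of 0.41 (95% CI −1.98 to −0.63, adjusted p = 0.276 without NL replicate 6). With every array the same difference had an interval of −2.51 to −0.10 and an adjusted p of 1.00.

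Abcb11, which exports bile salts, stood the other way. Its signals were 10.25, 10.58 and 10.02 in NN females and 10.96, 10.83 and 10.83 in LN females. The groups did not overlap, as was so in this direction for 6.46% of all probe sets. The log2 difference was 0.59, a ratio of 1.5 (95% CI 0.29 to 0.89, adjusted p = 0.276 without NL replicate 6), and with every array the interval was −0.07 to 1.25. The adjusted p of both genes stayed above the threshold under every alternative tried, between 0.262 and 1.00 for Cyp7a1 and between 0.276 and 1.00 for Abcb11.

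Slco1b2, an uptake carrier, was 11.19, 11.25 and 11.01 in NN females and 11.42, 11.54 and 11.32 in LN females, again without overlap (6.46% of all probe sets). The difference of 0.27 had an interval of −0.09 to 0.64 (adjusted p = 0.735). Slc27a5 was 11.45, 11.84 and 11.43 in NN females and 11.80, 12.01 and 11.92 in LN females, which overlapped, with a log2 difference of 0.34 (95% CI 0.04 to 0.64, adjusted p = 0.576). For the remaining genes the differences ran from −0.45 (Cyp8b1, −1.22 to 0.32) to 0.57 (Nr0b2, −0.39 to 1.52). Nr0b2 was 10.11, 9.12 and 8.06 in LN females and 8.37, 8.49 and 8.73 in NN females, so that the LN animals lay on both sides of all NN animals.

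In males of the LN group these genes stood differently. Cyp7a1 was 10.80, 10.71, 9.88 and 10.88 in NN males and 10.62, 10.58, 10.62 and 11.10 in LN males (difference 0.16, 95% CI −0.42 to 0.75). Abcb11 was 10.40, 10.53, 10.44 and 10.44 in NN males and 10.76, 10.67, 10.34 and 10.56 in LN males (0.13, −0.13 to 0.39). The groups overlapped for both genes. The test of the difference between the sexes in the LN effect gave 1.47 for Cyp7a1 (SE 0.43, 95% CI 0.58 to 2.36, adjusted p = 0.409) and −0.46 for Abcb11 (SE 0.19, adjusted p = 0.640) without NL replicate 6, and with all arrays the intervals were −0.12 to 3.06 and −1.34 to 0.41. Baat was the only gene with an unadjusted p under 0.05 in LN males without NL replicate 6: it was 9.45, 9.58, 9.59 and 9.81 in NN males and 9.99, 9.79, 9.67 and 10.20 in LN males, overlapping, with a difference of 0.31 (95% CI 0.03 to 0.58, adjusted p = 0.370). With all arrays its interval was −0.21 to 0.83.

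In LL females Cyp7a1 was 10.48, 10.37, 11.34, 11.60 and 10.75, within or below the NN range, with a difference of −0.66 (95% CI −1.26 to −0.05, adjusted p = 0.404 without NL replicate 6). Abcb11 was 10.55, 10.67, 10.49, 10.50 and 10.65 in these animals, a difference of 0.29 (0.02 to 0.55, adjusted p = 0.416). With all arrays the intervals were −1.73 to 0.42 and −0.31 to 0.88. Cyp7a1 and Abcb11 thus had the same signs as in LN females, but both comparisons use the same NN females. The means of NL females lay on the same sides, Cyp7a1 at 11.05 against 11.56 in NN females and Abcb11 at 10.42 against 10.28. Among the 8 groups of diet and sex without NL replicate 6, NN females had the highest mean Cyp7a1 and the lowest mean Abcb11. Without both NL replicate 6 and LL replicate 1, the array with Y-linked signals between the sexes, 1 gene in LL females had an unadjusted p under 0.05 in place of 2. That gene was higher than in NN females, so the lower Cyp7a1 was no longer counted. In NL females Slc27a5 was 11.97, 11.72 and 11.99, overlapping NN, with a difference of 0.32 (0.02 to 0.62, adjusted p = 0.502 without NL replicate 6, and −0.48 to 1.12 with all arrays). Nr0b2 was 8.77, 9.30 and 8.75 in NL females, all above the 3 NN females, as was so for 9.72% of all probe sets, with a difference of 0.41 and a wide interval (−0.55 to 1.36).

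In NL males the outcome turned on NL replicate 6. With it, all 10 genes had lower means than in NN males, and 3 genes had an unadjusted p under 0.05: Baat (−0.57), Slc27a5 (−0.73) and Slco1b2 (−0.83, SE 0.35, adjusted p = 0.115). The background in that comparison was 32.8% of all probe sets. Leaving out NL replicate 5 or NL replicate 7 while keeping the weak array gave 6 and 4 genes at an adjusted p under 0.05, beside 25% and 29.2% of all probe sets. Without that array Slco1b2 was 10.53, 11.12 and 11.47 in NL males, spanning the NN males (11.27, 11.25, 11.30 and 11.00). The difference became −0.17 (95% CI −0.51 to 0.18), with Slc27a5 at −0.06 and Baat at −0.12, and Cyp7a1 was then above NN at 0.37 (−0.26 to 1.00).

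Neither the LL effect nor the NL effect differed between the sexes at the adjusted threshold for any of the 10 genes, nor did the LN effect. These counts of 0 stood beside 0%, 0% and 0% of all probe sets with all arrays and 0%, 0% and 0% without NL replicate 6. At an unadjusted p under 0.05 without that array the counts were 0, 0 and 2 genes for the LL, NL and LN effects, beside 6.49%, 4.98% and 7.1% of all probe sets.

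The one bile acid gene that differed between groups past the threshold was Cyp8b1, between the sexes. Without NL replicate 6 it was higher in males by 0.88 on the log2 scale, a ratio of 1.84 (SE 0.17, 95% CI 0.52 to 1.24, adjusted p = 0.00132), averaged over the 4 diet groups. This was 1 of 10 genes, beside 5.65% of all probe sets. At an unadjusted p under 0.05 it was also 1 of 10, beside 17.3%. With all 30 arrays the difference was 0.74 (95% CI 0.28 to 1.19, adjusted p = 0.0796), so that 0 of 10 genes passed, beside 2.51%, and 1 of 10 had an unadjusted p under 0.05, beside 13.1%.

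Males were higher in Cyp8b1 in each diet group. NN males were 10.22, 10.24, 10.42 and 10.06 and NN females 9.91, 8.76 and 9.93, a difference in means of 0.70 with no overlap (males above females in this way: 4.31% of all probe sets). LL males were 10.34, 10.49, 10.25 and 10.38 and LL females 9.94, 8.31, 9.70, 9.83 and 10.13, a difference of 0.78, again with no overlap (3.12%). NL males other than replicate 6 were 9.44, 10.88 and 9.95 and NL females 9.28, 9.74 and 8.78, a difference of 0.82 with overlapping ranges (5.77% of all probe sets did not overlap). LN males were 10.36, 9.87, 10.62 and 10.36 and LN females 8.66, 8.87 and 9.72, a difference of 1.22 with no overlap (6.79%). The sex difference did not itself differ between LN and NN offspring past the threshold (0.51, 95% CI −0.51 to 1.53). Without both NL replicate 6 and LL replicate 1 the averaged difference was 0.90 (adjusted p = 0.00125).

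**Figure D4:**
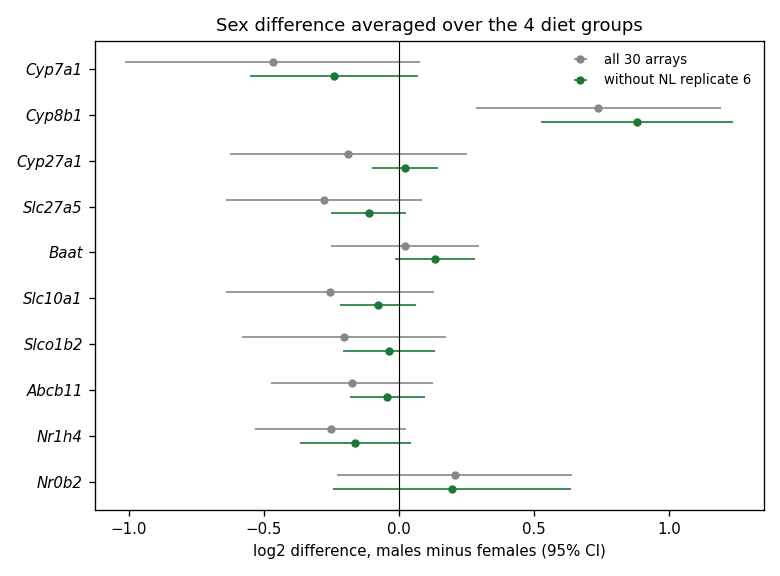
Log2 difference between males and females for each gene, averaged over the 4 diet groups, with 95% confidence intervals from limma for all 30 arrays (grey) and without NL replicate 6 (green). Cyp8b1 lies at 0.74 and 0.88, and the green intervals of the other 9 genes all include 0.

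For 9 of the 10 genes the interval of the sex difference included 0 without NL replicate 6. It was narrow for Cyp27a1 (−0.10 to 0.14), Abcb11 (−0.18 to 0.09), Slc10a1 (−0.22 to 0.06) and Slco1b2 (−0.21 to 0.13). It was wider for Cyp7a1 (−0.55 to 0.07) and Nr0b2 (−0.25 to 0.63). In NN offspring Nr0b2 also did not overlap, at 8.84 to 9.46 in males and 8.37 to 8.73 in females, as was so for 4.31% of all probe sets. Its male mean was above the female mean by 0.55 in NN and 0.78 in LL offspring. In NL and LN offspring it was below (−0.28 and −0.27). By diet, Cyp7a1 was higher in NN females than in NN males by 0.99 and lower in LN females than in LN males by 0.47, which is the difference tested above as the sex difference in the LN effect.

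Further genes of the pathway differed between the sexes, with 5.65% of all probe sets past the same threshold without NL replicate 6 and 2.51% with all arrays. Of 14 further synthesis enzymes, 3 were higher in males and 2 in females at an adjusted p under 0.05 without NL replicate 6. Cyp7b1, the oxysterol hydroxylase of the alternative pathway, was higher in males by 2.52, Scp2, a peroxisomal thiolase of side chain shortening, by 1.27, and Acox2, the side chain oxidase, by 0.35. Cyp39a1, which hydroxylates another oxysterol, was higher in females (−1.23, males minus females), as was Akr1d1, the steroid reductase (−0.55). Of 12 further transporters 1 was higher in males, the uptake carrier Slco1a1 (1.93), and 3 in females: Slco1a4 (−1.73), the basolateral efflux pump Abcc4 (−0.64) and the sterol half-transporter Abcg5 (−0.52). With all arrays the enzymes numbered 2 higher in males and 1 in females, without Acox2 and Akr1d1 (adjusted p = 0.122), and the transporters 1 and 2, without Abcg5 (adjusted p = 0.0550).

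Further lists were read at the same threshold without NL replicate 6, beside 5.65% of all probe sets. Of 8 measured genes of bile acid conjugation and detoxification, 2 were higher in males, Ugt2b1 (0.94) and Ephx1 (0.28). Higher in females were 3: Cyp2b10 (−5.72) and the sulphotransferases Sult2a1 (−3.78) and Sult2a2 (−5.90). These sulphotransferases are close paralogs whose probe sets may share signal, which was not tested. Of 13 measured regulators 0 were higher in males and 3 in females, the FGF15 co-receptor Klb (−0.62), the coactivator Ppargc1a (−0.71) and the receptor Nr1i3 (−0.82). Slc10a2, the ileal bile acid carrier, which cholangiocytes also carry, was higher in males by 0.97, and Fgf15 and Fabp6 did not pass. With all arrays, beside 2.51% of all probe sets, the conjugation genes numbered 1 higher in males and 3 in females, without Ephx1. The regulators again numbered 0 and 3, and Slc10a2 had an adjusted p of 0.138.

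Some markers of other liver cells differed with sex. At an adjusted p under 0.05 without NL replicate 6, beside 5.65% of all probe sets, 1 of 6 measured cholangiocyte markers was higher in males (Sox9, 0.76), and 1 of 7 Kupffer cell markers (Vsig4, −0.56), 2 of 6 stellate cell markers (Lrat, −0.48, and Dcn, −0.38) and 1 of 6 endothelial markers (Kdr, −0.29) were higher in females, while 0 of 10 hepatocyte markers passed. With all arrays, beside 2.51%, Lrat passed (−0.51, adjusted p = 0.00244), and Sox9, Vsig4, Dcn and Kdr had adjusted p-values of 0.0531, 0.0659, 0.242 and 0.273. Their part in the sex difference of Cyp8b1 was not tested. In whole liver, fewer cells of a type and less RNA per cell cannot be told apart.

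By diet, 0 genes of the lists of other enzymes, transporters, conjugation genes and regulators passed the adjusted threshold in LL, NL or LN offspring of either sex or of both, with or without NL replicate 6. At an unadjusted p under 0.05 without that array, the highest counts were 4 of 12 transporters lower in NL males and 4 of 13 regulators lower in LN males. In either direction, 11.5% and 12.1% of all probe sets were counted in these comparisons. With all arrays, those lower in NL males were 7 of 12 transporters, 5 of 14 enzymes, 5 of 8 conjugation genes and 5 of 13 regulators. In either direction 32.8% of all probe sets were counted there. Without NL replicate 6 the smallest p among the enzymes belonged to Cyp2c70, the enzyme that makes muricholic acids in mice. It was higher in LN than in NN offspring by 0.53 (adjusted p = 0.123 without NL replicate 6, and 0.9999 with all arrays). In females it was 10.28 ± 0.28 (SD, n = 3) in NN and 10.98 ± 0.34 (n = 3) in LN. In LN males the coactivator Ppargc1a was 7.47 ± 0.44 (SD, n = 4) against 8.34 ± 0.20 (n = 4) in NN males (−0.87, adjusted p = 0.115 without NL replicate 6, and 0.946 with all arrays). Nr5a2, an activator of Cyp7a1 and Cyp8b1, was 9.43 ± 0.33 in LN males against 9.97 ± 0.06 in NN males (−0.54, adjusted p = 0.149 without NL replicate 6). With all arrays Nr5a2 did not have an unadjusted p under 0.05 in this comparison.

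Clock genes, whose transcripts follow the time of day, were measured in the same livers, and 0 of 5 passed the adjusted threshold in LL or LN offspring of either sex. In LN males 2 of 5 had an unadjusted p under 0.05 without NL replicate 6, Dbp and Nr1d1. The median of the 5 differences was −0.18, but it mixes genes of both signs. Arntl (0.93) and Clock (0.22) were higher than in NN males, neither with an unadjusted p under 0.05. Dbp ran from 6.87 to 11.58 in LN males and from 10.14 to 11.96 in NN males (−2.89, adjusted p = 0.238, and 0.946 with all arrays). Nr1d1 differed there by −1.85 (adjusted p = 0.184, and 0.935 with all arrays). In LN females Dbp was 10.94 to 11.42 and in NN females 9.47 to 12.17. Per2 was the 1 of 5 with an unadjusted p under 0.05 in LN females and in LL females. It was 6.55 to 7.17 in LN females and 7.49 to 7.90 in NN females (−0.85, adjusted p = 0.516 without NL replicate 6, and 0.9996 with all arrays). In LL females Per2 was 6.45 to 7.83 (−0.83, adjusted p = 0.286 without NL replicate 6, and 0.9999 with all arrays). The medians of the 5 differences, again over genes of both signs, were 0.17 in LN females and −0.83 in LL females. In LL females Dbp (−1.89) and Nr1d1 (−1.13) were also lower, and Arntl (1.33) and Clock (0.21) were higher. None of these had an unadjusted p under 0.05. The part of the clock genes in the values of the bile acid genes was not tested.

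Relations between regulators and targets were examined over the 29 arrays without NL replicate 6, after removing the mean of each diet and sex group. Of 7 pairs chosen as regulator and target or as neighbours in the pathway, 1 passed: Cyp7a1 and Cyp8b1 varied together (Pearson r = 0.58, permutation p = 7.2e-04, adjusted over the 7 pairs 0.00504, and Spearman rho = 0.55, permutation p = 0.00212, adjusted 0.0148). Leaving out the 2 arrays farthest in Cyp7a1 gave r = 0.53. Within females r was 0.71 (14 arrays, adjusted p = 0.026) and within males 0.23 (15 arrays, adjusted p = 0.686). Without the 2 arrays farthest in Cyp7a1 within each sex, r was 0.68 in females and 0.52 in males. Whether the sexes differ in this relation was not tested. The permutations took the deviations as free, although group means had been removed from them. The permutation p-values of all 7 pairs therefore tend to be too small, most of all within 1 sex. Which pairs would pass with allowance for the means was not tested.

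**Figure D5:**
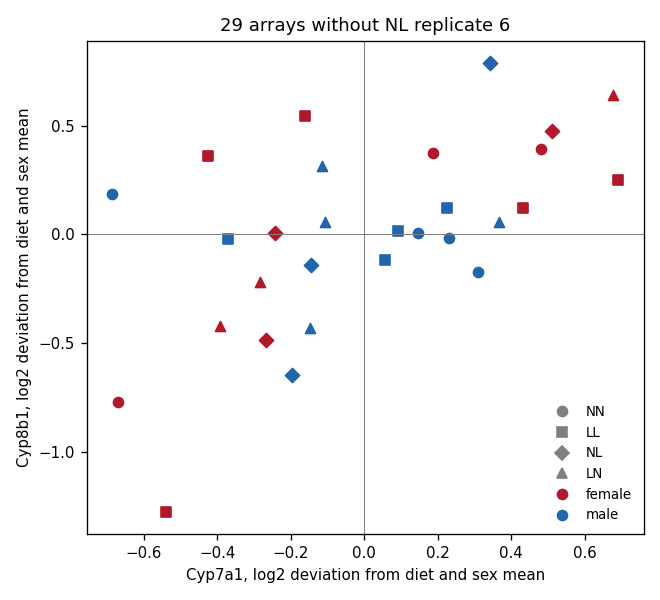
Deviations of Cyp7a1 and Cyp8b1 (log2) from the mean of each animal's diet and sex group, on 29 arrays without NL replicate 6, with diet by symbol and sex by colour. The points run from low to high together (r = 0.58), with r = 0.71 among females and 0.23 among males. Without the 2 arrays farthest in Cyp7a1 within each sex, r is 0.68 in females and 0.52 in males.

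For Nr0b2, the co-repressor, neither pair with its targets passed. Its r was −0.09 with Cyp7a1 (permutation p = 0.649, rho = −0.01, permutation p = 0.972) and 0.24 with Cyp8b1 (adjusted p = 0.283, rho = 0.27). In males alone its r with Cyp8b1 was 0.58 (15 arrays, permutation p = 0.0256, adjusted 0.179, rho = 0.47) and 0.34 without the 2 arrays farthest in Nr0b2, and in females it was 0.05. Nr1h4 had r = 0.23 with Nr0b2 (rho = 0.16) and 0.25 with Abcb11 (rho = 0.26), adjusted p = 0.283 for both. The clock genes Dbp and Nr1d1 had r = −0.22 and −0.26 with Cyp7a1 (rho = −0.23 and −0.25, adjusted p = 0.283 for both). With NL replicate 6 included, Nr1h4 and Abcb11 reached r = 0.72 (adjusted p = 6.65e-04), and without the 2 arrays farthest in Nr1h4 this was 0.24.

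Across all 45 pairs of the 10 genes on the same 29 arrays the correlations of the deviations ran from −0.59 to 0.65 with a median of 0.08, given as a description of arrays that share a scale and groups. The uptake carriers Slc10a1 and Slco1b2 had the highest value (0.65), followed by Nr1h4 with Slco1b2 (0.63), Nr1h4 with Slc10a1 (0.59) and Cyp7a1 with Cyp8b1. The lowest was Cyp7a1 with Cyp27a1 (−0.59), the entry enzymes of the classical and alternative pathways, and Cyp8b1 with Slc27a5 followed at −0.50. Cyp7a1 with Abcb11 was −0.40.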

How the data were processed

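Liver RNA of 30 offspring was hybridised by the authors to 1-colour Clariom S mouse arrays (WT PLUS labelling) and processed with Partek Genomics Suite. The deposited values are log2 signals per probe set. Steps of background correction, summarisation and normalization were not given in the sources used here. From 29129 probe sets, 6923 controls were left out and the other 22206 were tested, with no filter on signal. The number of arrays limits the precision. Linear models were fitted with limma 3.58.1 (R 4.3.3, data.table version 1.17.8), with 4 diet groups for both sexes together and 8 groups of diet and sex for the rest, and two-sided moderated tests were adjusted by Benjamini-Hochberg over all 22206 probe sets. The script was tested on simulated data. Correlations used 100000 permutations of the deviations, without allowance for the group means removed. Probe sets were named from the platform annotation.

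These 10 genes, the other lists and the tests were chosen with earlier results of these data known. All 10 genes were described, in full those with an unadjusted p under 0.05 in any comparison. Of the other lists, genes past the adjusted threshold or among the 3 smallest p-values could be named, and not every one is described. Alternatives were leaving out arrays, quantile normalization, centring on array medians, removal of the lowest 40% of probe sets by mean signal, a sex term, a replicate block, only the compared groups, array weights, and the plain residual variance of the methods' analysis of variance.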

Additional observations from a re-analysis of the deposited data

Results flagged for a closer look

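Within each group of 4 to 10 arrays, the highest and the lowest array were compared with the rest by Dixon's ratio. Of 90 groups tested (gene by diet, and gene by diet and sex), 22 held an array past the 95% critical value, of which 11 were NL replicate 6. By chance about 5% of groups would, and groups of 1 gene share arrays.

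NL replicate 6 was far below the other NL arrays in Cyp7a1 (7.32), Cyp27a1 (7.93), Slc10a1 (9.07), Abcb11 (8.36), Baat (7.70), Slc27a5 (8.88) and Slco1b2 (8.37), and among NL males again in Cyp7a1, Cyp27a1, Abcb11 and Slc27a5.

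The other 11 were single animals. Cyp7a1 was low in NN replicate 6 among NN males (9.88, next 10.71) and high in LN replicate 7 among LN males (11.10, next 10.62). Cyp8b1 was low in NN replicate 2 (8.76, next 9.91) and in LL replicate 2 (8.31, next 9.70), the latter among all LL arrays and among LL females. LL replicate 4, a female, was low in Cyp27a1 (10.78) and in Slco1b2 (10.63), each among all LL arrays and among LL females. Slc27a5 was low in LN replicate 6 (11.42), and Slco1b2 in NN replicate 7 among NN males (11.00).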

How the results depend on the processing

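The counts of bile acid genes at an adjusted p under 0.05 stayed at 0 under every alternative in 12 of the 14 comparisons. In NL males against NN males, leaving out 1 array at a time gave 0 to 6 genes, 6 without NL replicate 5 and 4 without NL replicate 7, both with the weak array kept and beside 25% and 29.2% of all probe sets. Between the sexes the count was 0 with all arrays and 1 (Cyp8b1) without NL replicate 6, without that array and LL replicate 1, after quantile normalization and with array weights, and 0 to 1 when 1 array was left out. The difference in Cyp8b1 ran from 0.34 to 1.01. With the replicate block it was 0.34 (SE 0.61) and every count was 0, but numbers 4 to 7 mark males in 3 of the 4 groups, so the block takes up most of the contrast between the sexes. Same-numbered arrays of different groups had r of −0.21 to 0.19 (39 pairs, median 0.01, 6 over 0.1). Differently numbered arrays had r of −0.29 to 0.37 (274 pairs, 46 over 0.1). These values gave no sign of a pairing by number, but they cannot exclude one. With all 30 arrays, the correlation of Nr1h4 with Abcb11 rose to 0.72 and those of Cyp7a1 with Dbp and Nr1d1 changed sign to 0.18 and 0.12. In males alone, Nr0b2 with Cyp7a1 was 0.37, and Cyp7a1 with Cyp8b1 was 0.23, or 0.52 without the 2 arrays farthest in Cyp7a1. The cause was not tested. With 3 to 5 arrays of a sex per diet group, intervals of most diet differences span over 0.5 on the log2 scale.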
